A study of Mus musculus with 9 samples.

Results

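The transcripts of 9 amino acid transporter genes were followed in MC38 cells, a mouse colon carcinoma line, after treatment with copper and cystine. The 9 genes, and the other gene lists below, were chosen with earlier results of these data known. All 9 were found by symbol among the 16509 genes of the expression table. They are Slc7a11 (Entrez gene 26570), Slc3a2 (17254), Slc7a5 (20539), Slc7a1 (11987), Slc38a1 (105727), Slc38a2 (67760), Slc1a4 (55963), Slc1a5 (20514) and Slc6a9 (14664). RNA was sequenced from 3 libraries each of control cells (Ctrl), of cells given cystine with copper chloride (Cu-Cys) and of cells given Cadict. Cadict is a nanoparticle of coordinated copper and cystine that also carries glucose oxidase (GOx), an enzyme that consumes glucose, and GE11, a peptide that binds the receptor EGFR. The sample labels name DMSO as the control treatment and the study names PBS, and neither gives a dose or a time for these cells. All groups are the same cell line. In addition to copper and cystine, Cadict holds GOx and GE11, the latter joined to the lipid-polymer DSPE-PEG. The parts of these components, and of any difference in uptake or dose, in a difference from Cu-Cys cannot be told apart. The study states in general that its cell experiments were repeated independently, but the labels do not say what separates the 3 libraries of a group. The p-values below measure the spread between these libraries, which may in part be technical.

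Cystine, the oxidised dimer of cysteine, enters cells through system xc-, an exchanger that releases glutamate for each cystine taken up. Slc7a11 encodes its transporting light chain and Slc3a2 its heavy chain, the surface glycoprotein CD98, which also carries other light chains such as the leucine transporter Slc7a5. Imported cystine is reduced to cysteine at the expense of NADPH, which cells make from glucose, and disulfidptosis is a form of cell death described in cells that import much cystine while starved of glucose. The other 6 genes bring in cationic amino acids (Slc7a1), glutamine and small neutral amino acids (Slc38a1, Slc38a2, Slc1a4, Slc1a5) and glycine (Slc6a9). Several of these genes are textbook targets of ATF4, the transcription factor of the amino acid response, which binds amino acid response elements in their regulatory regions.

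The promoter of Slc7a11 is shown because it holds 2 matches to such an element, more than the promoters of the other transporters examined. Reference promoters, running from 250 bases before to 50 after a transcription start, were taken from RefSeq (GRCm38.p6), where 6 of the 9 symbols had an entry. In the stretch below, which lies at chr3:50443651-50443680 on the minus strand, 67 to 38 bases before the start, capitals mark the 2 matches to TGATGNAA, the first on the gene's strand and the other on the opposite strand.
Slc7a11: cTGATGCAAacctggagaatTTGCATCAtc
The same letters were found once in the Slc1a4 promoter, across the start from base -4 to base 4, and in no window of Slc3a2, Slc7a1, Slc38a2 or Slc6a9. Of all 32851 promoters of this length, 3.97% held at least 1 match on either strand. The letters of the antioxidant response element, TGACNNNGC, were found in windows of Slc6a9, Slc7a1 and Slc38a2 and in 12.4% of all promoters. Those of the metal response element, TGCNCNC, were found in windows of Slc6a9 and Slc7a1 and in 51% of all promoters, and GAANNTTC, a heat shock element, was in no window of the 6 genes and in 7.86% of all promoters. The searched letters of the different elements did not overlap in the printed stretch. A match describes the letters only.

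The libraries held 17905771 to 18293056 counts, so that depth differed little between groups. Their make-up differed more. TMM factors, which assume that most genes do not differ between libraries, were 1.26 to 1.27 in Ctrl, 1.21 in Cu-Cys and 0.640 to 0.665 in Cadict. After this scaling 40.6% of genes tested still rose and 47.1% fell in Cadict against Ctrl (edgeR, adjusted p of at most 0.05). Fold changes with TMM rest on that assumption. Values are given as CPM (counts scaled to a common library size) after TMM scaling unless another scale is named, and a change on this scale is relative to the typical gene. Fewer cells and less RNA per cell cannot be told apart in such bulk samples, and no scale here gives RNA per cell. Cadict replicate 2 stood apart from the other Cadict libraries, with a chi-square per gene of 14.7 and 23.2 against them compared with 3.63 between those, and its part in each result is given where leaving it out changed a call. The colon epithelial identity of the cells was faint in the RNA: of 9 epithelial markers 7 were in the table, with a summed level of 4.83 to 6.86 TPM (the deposited level corrected for transcript length) in Ctrl, 3.75 to 4.43 in Cu-Cys and 11.6 to 13.5 in Cadict. Epcam, the epithelial adhesion molecule, was listed at 0 TPM in Ctrl and Cu-Cys. Of 9 markers of other cell types, 7 were in the table. Their summed level was 2912 to 3033 TPM in Ctrl, 2637 to 2792 in Cu-Cys and 1170 to 1251 in Cadict, nearly all of it Vim, and without Vim it was 45.4 to 51.4, 29.3 to 31.7 and 23.0 to 27.8 TPM. After TMM scaling Vim did not differ, with a mean of 2056 CPM in Ctrl and 2060 CPM in Cadict. In Cadict against Ctrl, Cd68, a macrophage marker, rose (7.05 to 15.9 TPM), and Col1a1 and Pdgfrb, markers of fibroblasts and pericytes, fell (7.23 to 1.03 and 32.6 to 7.71 TPM). With TMM scaling the log2 fold changes of Cd68, Col1a1 and Pdgfrb were 2.49, -1.50 and -0.78. The part of either list in the results below was not tested.

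Cadict was first compared with Ctrl, which asks how the whole particle changed the transporters. Relative to the typical gene, all 9 transporter transcripts were higher in Cadict, from 1.49-fold for Slc1a5 to 16.5-fold for Slc6a9. All 9 rose at an adjusted p of at most 0.05 (edgeR quasi-likelihood test, Benjamini-Hochberg over 11949 genes), compared with 40.6% of all genes tested, and 0 fell, compared with 47.1%. The Ctrl and Cadict libraries did not overlap for any of the 9, nor for 87.5% of all genes. At the study's threshold, which asks for an adjusted p no higher than 0.001 and a fold change no smaller than 2, 7 of the 9 were called higher and 0 lower, where the background was 20.7% of genes higher and 27.1% lower. The median log2 fold change was 1.47 over the transporters and -0.13 over all genes tested. Because the 9 were chosen with earlier results of these data known, their distance from the background is a description and no independent support. The same holds for the other comparisons and lists below. Slc38a1 and Slc1a5 were the members not called.

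**Figure D1:**
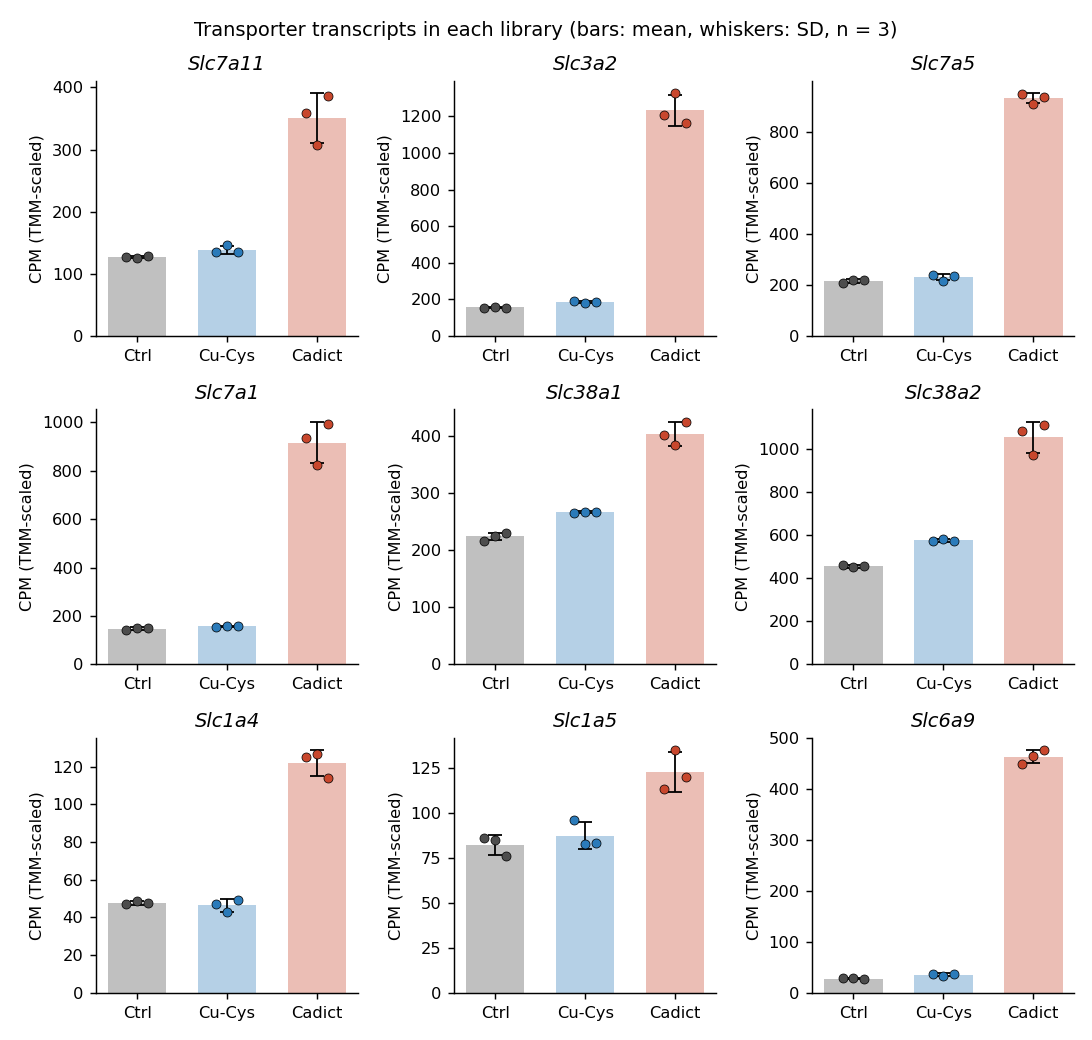
Level of each transporter transcript in each library, as CPM after TMM scaling (vertical axes start at 0 and differ between panels), for Ctrl, Cu-Cys and Cadict. Points are libraries, bars are means and whiskers are SD (n = 3). In all 9 panels the Cadict libraries sit above the libraries of both other groups. In deposited TPM this order does not hold for Slc38a1, Slc38a2 and Slc1a5, whose Cadict mean is below that of Ctrl. Nor does it hold for Slc7a11 and Slc1a4, of which only Cadict replicate 2 is not above every Ctrl library.

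Slc7a11, the cystine-transporting chain of system xc-, had 127, 125 and 129 CPM in the Ctrl libraries and 359, 307 and 386 CPM in the Cadict libraries. Every Cadict library was above every Ctrl library, with replicate 2 the lowest of the Cadict libraries. The means were 127 ± 2.09 CPM in Ctrl and 351 ± 40.2 CPM in Cadict (SD, n = 3). The log2 fold change was 1.47 (SE 0.071, adjusted p = 1.4e-11, edgeR), a 2.76-fold rise. In the raw counts, which were 2881 to 2956 in Ctrl and 3523 to 4599 in Cadict, the groups were also apart. In deposited TPM they were not: Slc7a11 had 31.8 to 33.2 TPM in Ctrl and 36.75, 27.8 and 41.7 TPM in Cadict. Only Cadict replicate 2 was not above every Ctrl library. The log2 fold change of Slc7a11 in TPM was 0.10 (limma on log2(TPM + 1), adjusted p = 0.41).

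Slc3a2, the heavy chain that system xc- shares with other transporters, had 155, 161 and 153 CPM in Ctrl and 1209, 1328 and 1165 CPM in Cadict. No library of either group came near the other group. The log2 fold change was 2.98 (SE 0.059, adjusted p = 7.2e-16, edgeR), a 7.90-fold rise, and 97.5% of the genes tested had a smaller one. Slc3a2 was also higher in deposited TPM, at 193 ± 4.84 in Ctrl and 627 ± 15.4 in Cadict. For Slc7a11 the share of genes with a smaller fold change was 87.0%.

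Slc7a5, the light chain that exchanges leucine and other large neutral amino acids, had 207, 221 and 218 CPM in Ctrl and 947, 908 and 936 CPM in Cadict. The groups were far apart and the Cadict libraries lay close together. Its log2 fold change was 2.11 (SE 0.053, adjusted p = 8.0e-15, edgeR). Slc7a1, the main carrier of arginine and lysine in many cells, had 142, 151 and 151 CPM in Ctrl and 934, 821 and 991 CPM in Cadict. All Cadict libraries were again above all Ctrl libraries, with replicate 2 the lowest. Its log2 fold change was 2.63 (SE 0.065, adjusted p = 6.8e-15, edgeR).

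Slc6a9, the glycine transporter GlyT1, changed most among the 9. It had 28.9, 28.4 and 26.7 CPM in Ctrl and 450.0, 464 and 476 CPM in Cadict. The replicates of each group differed little beside the distance between the groups. The log2 fold change was 4.05 (SE 0.062, adjusted p = 7.1e-17, edgeR), and 98.7% of the genes tested had a smaller one. Of the 50-base stretches of Slc6a9 transcripts (GENCODE M21, GRCm38), 26.3% also occur in transcripts of Ccdc24 or Gm17114, in both cases on the opposite strand, so that reads from these stretches cannot be assigned without strand. Ccdc24 had 154 to 173 counts in Ctrl and 24 to 35 in Cadict, and Slc6a9 had 612 to 669 counts in Ctrl and 5296 to 5671 in Cadict. For the other 8 transporters, the share of stretches found in another gene was 0 to 4.23%.

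The carriers of glutamine and small neutral amino acids were less far above Ctrl. Slc38a2, a sodium-coupled carrier known to be induced when amino acids are scarce, had 464, 450 and 455 CPM in Ctrl and 1082, 973 and 1109 CPM in Cadict, a log2 fold change of 1.21 (SE 0.053, adjusted p = 5.0e-12, edgeR). Its relative Slc38a1 had 217, 225 and 230 CPM in Ctrl and 401, 384 and 425 CPM in Cadict, a log2 fold change of 0.85 (SE 0.050, adjusted p = 1.7e-10, edgeR). On this scale the groups did not overlap for either gene. In raw counts, Slc38a2 had 10393 to 10718 in Ctrl and 11166 to 13210 in Cadict, whereas Slc38a1 had 5018 to 5284 in Ctrl and 4407 to 5064 in Cadict, with overlapping groups.

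Slc1a4, an exchanger of alanine, serine, cysteine and threonine, had 47.0, 48.9 and 47.5 CPM in Ctrl and 125, 126 and 114 CPM in Cadict, a log2 fold change of 1.35 (SE 0.063, adjusted p = 9.0e-12, edgeR). Slc1a5, the related exchanger that brings in glutamine, had 86.2, 85.1 and 75.9 CPM in Ctrl and 113, 135 and 120 CPM in Cadict. Its log2 fold change of 0.57 (SE 0.076, adjusted p = 3.3e-06, edgeR) was the smallest of the 9. Both genes were above Ctrl in every Cadict library on this scale. In raw counts Slc1a4 was at 1086 to 1130 in Ctrl and 1357 to 1474 in Cadict, and Slc1a5 was at 1741 to 1992 in Ctrl and 1334 to 1548 in Cadict, so the order of the groups turned for Slc1a5.

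**Figure D2:**
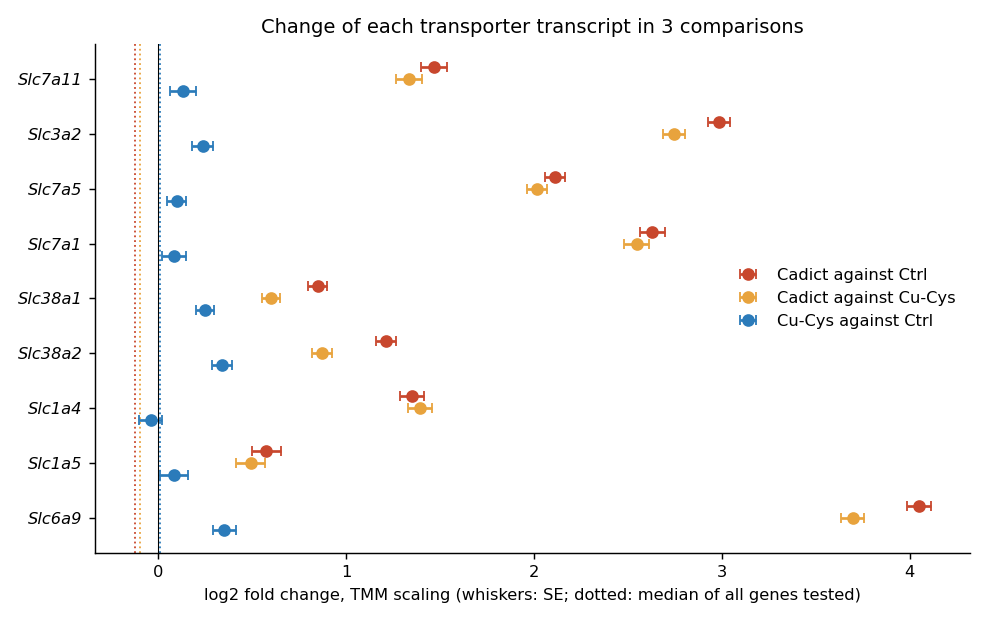
Log2 fold change (horizontal axis, TMM scaling) of each transporter in Cadict against Ctrl, Cadict against Cu-Cys and Cu-Cys against Ctrl, with whiskers for the SE from the fit and dotted lines for the median of all genes tested in the same comparison. Both Cadict comparisons lie to the right of their median for all 9 genes, and the Cu-Cys changes lie between -0.042 and 0.35. With library totals or deposited TPM in place of TMM, Slc38a1 and Slc1a5 lie below 0 in both Cadict comparisons, and Slc38a2 does so in deposited TPM in both and with library totals against Cu-Cys.

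The direction of the smaller changes depended on the scale. With library totals the median of all genes moved by -0.95 on the log2 scale, 4 of 9 transporters were called higher (Slc3a2, Slc7a5, Slc7a1 and Slc6a9), 7 rose and Slc1a5 fell (-0.38). In deposited TPM the median moved by -1.0, and 3 transporters were called higher (Slc3a2, Slc7a1 and Slc6a9). On that scale Slc38a1 (-0.44) and Slc1a5 (-0.72) fell, Slc7a5 rose with these 3, and Slc7a11 (0.10), Slc1a4 (0.044) and Slc38a2 (-0.077) did not pass the test. DESeq2 size factors moved the median by 0.12 and left 7 transporters called. Scaling factors move all genes of a comparison nearly alike, so only deposited TPM could change a gene's place among the others. All 9 transporters had a higher log2 fold change than the median gene in TPM, and the lowest of them, Slc1a5, was above 63.7% of genes in TPM and 68.8% with TMM.

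**Figure D3:**
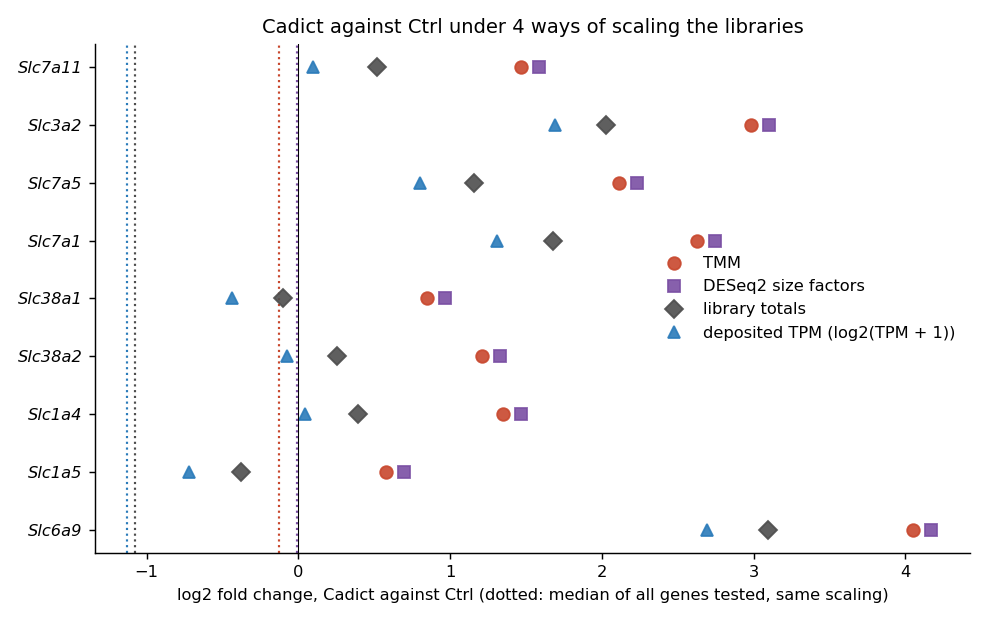
Log2 fold change of each transporter in Cadict against Ctrl (horizontal axis) with libraries scaled by TMM, by DESeq2 size factors, by library totals and as deposited TPM, with a dotted line for the median of all genes tested under the same scaling. Slc38a1 and Slc1a5 cross 0 with library totals and deposited TPM and Slc38a2 crosses 0 in deposited TPM, while Slc3a2, Slc7a5, Slc7a1 and Slc6a9 stay above 0 under all 4. A scaling factor moves the genes and the dotted line together.

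Ratios of 2 transporters in the same library need no scaling between libraries, and they show how the partners moved against each other. In Cadict, Slc7a11 was lower relative to its partner Slc3a2. The log2 ratio of Slc7a11 to Slc3a2 counts was -0.29, -0.37 and -0.25 in the Ctrl libraries, -0.50, -0.28 and -0.44 in the Cu-Cys libraries and -1.75, -2.11 and -1.59 in the Cadict libraries. The Cadict libraries were below all others, and the Ctrl and Cu-Cys libraries overlapped. The mean ratio was 2.87-fold lower in Cadict than in Ctrl, a log2 difference of -1.52 (2-sided exact permutation test, p = 0.1, adjusted p = 0.125 over 15 tests). With 3 libraries against 3, 0.1 is the smallest p that this test can give, so it cannot pass 0.05. In TPM the ratio was 0.168 ± 0.0063 in Ctrl, 0.157 ± 0.013 in Cu-Cys and 0.0563 ± 0.0099 in Cadict (SD, n = 3).

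Among the other pairs, Slc7a5 was also lower relative to Slc3a2, with a log2 difference of -0.87 in Cadict against Ctrl, and Slc7a11 was lower relative to Slc7a5, with a log2 difference of -0.65. The ratio of the glutamine exchanger Slc1a5 to Slc1a4 was lower in Cadict than in Ctrl (log2 difference -0.78), and that of Slc38a2 to Slc38a1 was higher (0.36). The Cadict and Ctrl libraries did not overlap in any of these 4 ratios, each with p = 0.1 in the exact permutation test and adjusted p = 0.125. Overlap was not counted for ratios of other gene pairs, so the 5 ratios have no background, and 87.5% of single genes did not overlap either. Between Cu-Cys and Ctrl the log2 differences of the 5 ratios were -0.14 to 0.13, and the groups overlapped in 3 of them.

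**Figure D4:**
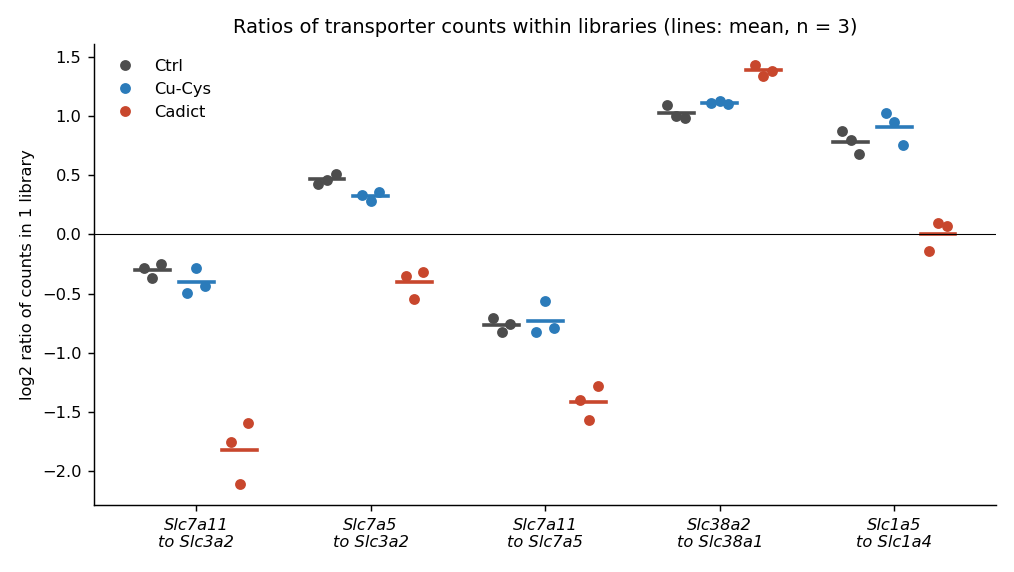
Log2 ratio of the counts of 2 transporters within each library (vertical axis) for 5 pairs, with 1 point per library and a line at the mean of the 3 libraries of Ctrl, Cu-Cys and Cadict. Cadict libraries are below all others for 4 pairs and above all others for Slc38a2 to Slc38a1, and the widest distance is for Slc7a11 to Slc3a2, with a mean of -0.30 in Ctrl and -1.82 in Cadict.

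Cu-Cys was then compared with Ctrl, which asks what copper and cystine did without GOx and GE11. The transporters moved little. At the study's threshold 0 of 9 were called (edgeR, and likewise DESeq2's Wald test), where the background was 0.167% of genes higher and 1.47% lower, and 4 passed an unadjusted p of 0.05. The same 4 rose at an adjusted p of at most 0.05, compared with 22.6% of all genes, and 0 fell, compared with 22.4%. The Cu-Cys and Ctrl libraries did not overlap for 6 of the 9 and for 61.2% of all genes. The median log2 fold change was 0.13 over the 9 and 0.0067 over all genes tested.

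Slc38a2 had 571, 584 and 574 CPM in the Cu-Cys libraries, all above the Ctrl libraries, and rose 1.26-fold (log2 0.34, SE 0.053, adjusted p = 1.4e-04, edgeR). Slc6a9 rose 1.28-fold, from 28.0 ± 1.18 to 35.7 ± 2.49 CPM (SD, n = 3, edgeR adjusted p = 4.1e-04). The rises of Slc38a1 and Slc3a2 were 1.19-fold (edgeR adjusted p = 9.2e-04) and 1.18-fold (edgeR adjusted p = 0.0032). In deposited TPM all 4 kept their sign and 0 of 9 passed the test (limma adjusted p of 0.099 to 0.35 for these 4).

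Slc7a11 had 135, 147 and 136 CPM in the Cu-Cys libraries, all slightly above the Ctrl libraries. Its log2 fold change of 0.13 (SE 0.070) did not pass the test at an adjusted p of 0.14 (edgeR). It passed when Cadict replicate 2, which shares the estimate of the spread, was left out (log2 0.13, edgeR adjusted p = 0.0092) and with DESeq2's Wald test on the 6 libraries (log2 0.13, adjusted p = 0.016). Slc7a5 (log2 0.097, edgeR adjusted p = 0.14) likewise passed without Cadict replicate 2 (edgeR adjusted p = 0.043). Without that library 6 of the 9 rose. The values for Slc7a1, Slc1a5 and Slc1a4 were 0.084, 0.083 and -0.042 on the log2 scale, with SEs of 0.063 to 0.075.

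Cadict and Cu-Cys, both of which bring copper and cystine, were compared directly. All 9 transporters were higher in Cadict relative to the typical gene, 9 rose (background 40.3%), 0 fell (45.6%), 6 were called higher (background 18.6%) and 0 lower (23.6%). The groups did not overlap for all 9 and for 85.0% of all genes. The 6 were Slc6a9 (log2 fold change 3.70), Slc3a2 (2.74), Slc7a1 (2.55), Slc7a5 (2.01), Slc1a4 (1.39) and Slc7a11 (1.33), all with an edgeR adjusted p of at most 5.4e-11. Slc38a2 (0.87), Slc38a1 (0.60) and Slc1a5 (0.49) rose by less than the fold limit. These 3 were below 0 with library totals (-0.011, -0.28 and -0.39) and in deposited TPM (-0.27, -0.55 and -0.66), where 3 of 9 were called higher. With library totals 4 were called higher, 6 rose and 2 fell. The median log2 fold change was 1.39 over the 9 and -0.099 over all genes. This comparison and that of Cadict with Ctrl share the Cadict libraries.

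Levels were compared between genes in deposited TPM. In Ctrl the order was Slc38a2 at 232 TPM, Slc3a2 at 193, Slc7a5 at 144, Slc1a5 at 72.5, Slc38a1 at 69.8, Slc7a1 at 46.5, Slc7a11 at 32.5, Slc1a4 at 28.3 and Slc6a9 at 20.3. Slc1a5 and Slc38a1 overlapped over the 3 libraries, with Slc38a1 the higher in replicate 3, and all other neighbours in this order were apart. In Cu-Cys Slc38a1 (75.4) and Slc1a5 (69.5) changed places while still overlapping, with Slc1a5 the higher in replicate 1. Slc1a4 (24.95) and Slc6a9 (23.4) also overlapped in range, but Slc1a4 was the higher within every Cu-Cys library.

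In Cadict, Slc3a2 stood first at 627 TPM, above all other transporters in every library. It was followed by Slc7a5 at 253 and Slc38a2 at 221, which overlapped, and by Slc6a9 at 137 and Slc7a1 at 118, which overlapped too. Slc38a1 at 51.6, Slc1a5 at 43.6, Slc7a11 at 35.4 and Slc1a4 at 29.3 came last, each overlapping its neighbour in the order. These overlaps are of ranges over the libraries, and within each Cadict library the order of all 9 was the same. The summed TPM of the 9 was 822 to 852 in Ctrl, 853 to 896 in Cu-Cys and 1373 to 1629 in Cadict. Of that sum Slc3a2 made up 22.8% to 23.4% in Ctrl and 39.2% to 44.4% in Cadict, and Slc7a11 made up 3.77% to 3.96% in Ctrl and 2.03% to 2.56% in Cadict.

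**Figure D5:**
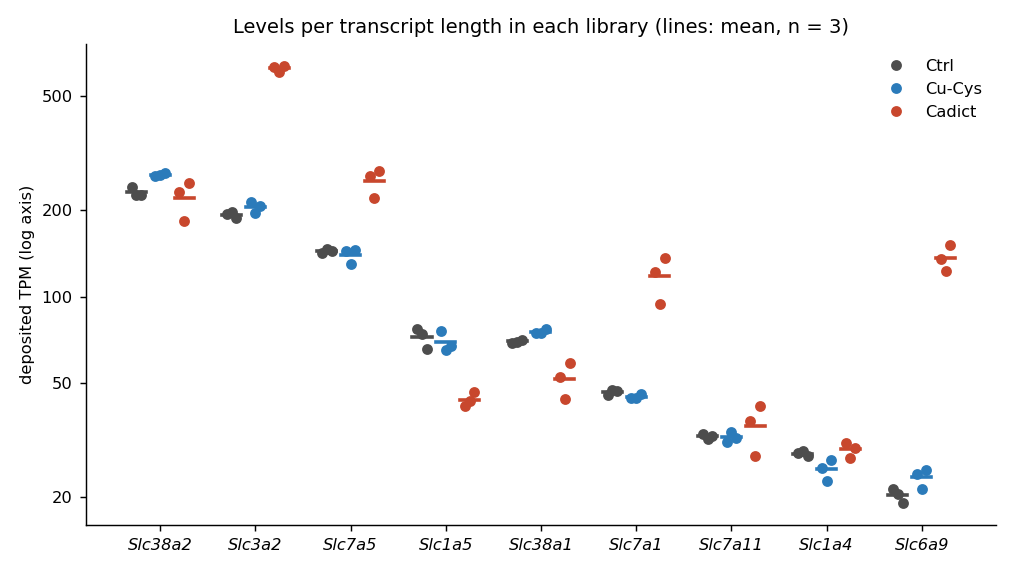
Deposited TPM of each transporter in each library (log axis), with 1 point per library and a line at the mean of the 3 libraries of Ctrl, Cu-Cys and Cadict, ordered by the Ctrl mean. Slc6a9 goes from the lowest level in Ctrl (20.3 TPM) to 137 TPM in Cadict, Slc3a2 reaches 627 TPM, and the Cadict points of Slc7a11 (27.8 to 41.7 TPM) surround those of Ctrl, with only replicate 2 below them.

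The pattern of Slc7a11 over the 9 libraries was compared with that of 8550 other genes at an average of at least 10 CPM, as the root mean square difference of log2 CPM after each gene's Ctrl mean was subtracted. The 5 nearest genes were Ptpn12, Pakap, Msn, Igf2r and Rbbp6, at 0.051 to 0.057, with log2 fold changes of 1.41 to 1.54 in Cadict against Ctrl. The nearest transporters among the 9 were Slc1a4 at 0.18 and Slc38a2 at 0.19. Its partner Slc3a2 was at 0.89, and Slc6a9 was the farthest at 1.503. This likeness is a description over 9 libraries, in which the difference between Cadict and the rest makes up most of the pattern.

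Other amino acid transporters were read from a list of 47 genes, of which 32 were in the table and 22 were tested. In Cadict against Ctrl 11 rose and 7 fell, beside 40.6% and 47.1% of all genes, with a median log2 fold change of 0.29, but with library totals 8 rose and 12 fell and in deposited TPM 7 rose and 13 fell. Slc36a1, a proton-coupled carrier of small amino acids in the lysosomal membrane, rose (log2 2.16, SE 0.098, edgeR adjusted p = 7.3e-12) under all 4 scalings. Slc43a2, a carrier of large neutral amino acids, fell under all 4 (log2 -2.61, SE 0.29, edgeR adjusted p = 3.9e-07). It had 71 to 100 counts in Ctrl and 4 to 9 in Cadict, so the size of its fall rests on few counts. Slc1a2, a glutamate transporter, had 0 to 2 counts in Ctrl and 42 to 52 counts in Cadict. It is 1 of 4 listed genes with at most 3 counts in every Ctrl library. Those 4 passed the filter only through their Cadict counts and are among the 11 that rose, so they add no support to that count. The median of 0.29 also includes these 4 genes and was not computed without them. Setting them to the bound that 3 counts per library allow left them above it. That check could not move the median, so it does not show their part in it. In Cu-Cys against Ctrl 6 of the 22 rose and 3 fell, beside 22.6% and 22.4% of all genes, or 1 and 5 in deposited TPM.

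Genes that use cystine and reduce disulfides were tested from a list of 13, of which 12 passed the filter. In Cadict against Ctrl 10 rose and 1 fell (40.6% and 47.1% of all genes), with a median log2 fold change of 1.33, but 7 rose and 4 fell with library totals and 4 rose and 5 fell in deposited TPM. The largest changes were those of Cth, which makes cysteine from cystathionine (log2 4.04, SE 0.13), Txnrd1, a thioredoxin reductase (3.89, SE 0.061) and Gclm, a subunit of the enzyme that starts glutathione synthesis (3.50, SE 0.069), which rose under all 4 scalings (edgeR adjusted p of at most 1.0e-13). In Cu-Cys against Ctrl 8 of the 12 rose (22.6% of all genes), or 7 in deposited TPM, with a median log2 fold change of 0.49. The member called higher there, as 0.167% of all genes were, was Gclc, the catalytic partner of Gclm, named after its value was seen (log2 1.14, SE 0.063, edgeR adjusted p = 1.1e-08). Txnrd1 (0.77) and Gclm (0.88) also rose in Cu-Cys.

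Genes described as regulators of Slc7a11 made up a list of 11, all tested. In Cadict against Ctrl 8 rose and 2 fell (40.6% and 47.1% of all genes), with a median log2 fold change of 1.19, but 6 rose and 4 fell with library totals and 4 rose and 5 fell in deposited TPM. The largest changes were those of Atf3, a stress-induced transcription factor reported to repress Slc7a11 (log2 6.80, SE 0.093), Ddit3, which encodes the stress factor CHOP (2.59, SE 0.097), and Cd44, which encodes a surface protein that stabilises the Slc7a11 protein (2.17, SE 0.054), and all 3 rose under all 4 scalings (edgeR adjusted p of at most 8.0e-13). The genes that fell, named after their values were seen, were Keap1 (log2 -1.32), the adaptor that marks the antioxidant factor NRF2 for degradation, and Myc (-1.09). Atf4, also named after its value was seen, rose by a log2 of 0.68 with TMM but was at -0.28 with library totals and -0.61 in deposited TPM. In Cu-Cys against Ctrl, where 22.6% of all genes rose and 22.4% fell, 5 of the 11 rose and Atf3 fell (log2 -0.47, SE 0.0997, edgeR adjusted p = 0.0014), and in deposited TPM the 1 gene that passed the test was Atf3, which fell (limma).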

How the data were processed

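RNA-seq of 9 MC38 libraries was read from a single table. Per the file headers and the deposited values, each library has an expected count per gene (estimated by the authors, not normalised), a TPM normalised by the authors for transcript length and library, and 18 further per-library columns and 12 group averages that were not used. Columns marked CC were taken as Cu-Cys, whose initials they carry. Columns marked CCGE were taken as Cadict, an inference from what it contains. The submitters' processing notes name HISAT2 2.1.0, Bowtie2 2.3.4.3, RSEM 1.3.1, GRCm39 and GRCh38.p13, without their roles. The methods name an Illumina instrument and the labels DNA nanoballs.

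Expected counts were rounded and fitted with edgeR 4.0.16 (R 4.3.3): filterByExpr by group, TMM scaling, 1 quasi-likelihood model of the 3 groups, Benjamini-Hochberg adjustment over 11949 genes. The SE of a log2 fold change was back-calculated as its absolute value over the square root of its F statistic. The call rule was an adjusted p no higher than 0.001 with a fold change no smaller than 2, and a gene was said to rise or fall at an adjusted p of at most 0.05. Ratios within libraries were tested by a 2-sided exact permutation test. Simulated counts with known changes were used to test the scripts. Alternatives were DESeq2 1.42.0 size factors and Wald test, library totals, other filters, limma 3.58.1 on log2 of the deposited TPM with pseudocounts of 1 and 0.1, a replicate block, no fold limit and leaving out each library. Counts of 17905771 to 18293056 per library set the counting precision, and a count of 0 allows up to 3 counts, or 0.13 to 0.26 CPM.

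The 9 genes and the other lists were chosen with earlier results of these data known. All 9 were named. Of each other list, counts and the 3 tested genes with the largest absolute change in Cadict against Ctrl at an average of at least 1 CPM were named, and for Slc7a11 the 5 nearest genes at an average of at least 10 CPM. Motifs were searched on both strands of RefSeq promoters (GRCm38.p6), a build other than the one in the submitters' notes, and stretches of 50 bases shared between genes were counted on GENCODE M21.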

Additional observations from a re-analysis of the deposited data

How the results depend on the processing

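Library totals and deposited TPM moved the counts of transporters. With library totals 4 of 9 were called higher in Cadict against Ctrl in place of 7, and 4 against Cu-Cys in place of 6, while 4 rose in Cu-Cys against Ctrl as with TMM. In deposited TPM, which was tested with limma and so changes both the scale and the test, with a pseudocount of 1 or of 0.1, 3 were called in Cadict against Ctrl, 3 against Cu-Cys in place of 6, and 0 rose or fell in Cu-Cys against Ctrl in place of 4. With no limit on the fold change 3 were called in Cu-Cys against Ctrl in place of 0.

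Among transporters that had passed the test, changes of sign came with library totals and deposited TPM. In Cadict against Ctrl, Slc38a1 was at -0.10 with library totals and at -0.44 in TPM with either pseudocount, Slc38a2 at -0.077 in TPM with either, and Slc1a5 at -0.38 with library totals and at -0.72 and -0.73 in TPM with pseudocounts of 1 and 0.1. In Cadict against Cu-Cys, in the same order of settings, Slc38a1 was at -0.28, -0.55 and -0.56, Slc38a2 at -0.011, -0.27 and -0.28, and Slc1a5 at -0.39, -0.66 and -0.67. The median of all genes moved in these settings too, by -0.95 (library totals) to -1.26 (TPM, pseudocount of 0.1) in Cadict against Ctrl. Of transporters that had not passed in Cu-Cys against Ctrl, Slc7a11 (-0.012), Slc7a5 (-0.046), Slc7a1 (-0.055) and Slc1a5 (-0.059) were below 0 in TPM with a pseudocount of 1, and Slc1a4 was at 0.014 without Cu-Cys replicate 2 in place of -0.042.

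Leaving out each library in turn, done with TMM scaling only, kept 7 transporters called in Cadict against Ctrl, 0 in Cu-Cys against Ctrl and 6 in Cadict against Cu-Cys, and 4 to 6 rose in Cu-Cys against Ctrl, with 6 without Cadict replicate 2. Correlations of same-numbered deviations ran from -0.20 to 0.15. Different-numbered pairs were not compared, so these values do not settle whether replicate numbers pair the samples. With the replicate number as a block 7, 0 and 6 were called and no call of a transporter changed. The other filters, DESeq2 size factors and the DESeq2 Wald test left these 3 counts as they were. Depth limits the genes at 3 counts or fewer in Ctrl, for which no fold change is given.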
